A study of Homo sapiens with 24 samples.

Results

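Long noncoding RNA (lncRNA) exons made up 3403 distinct windows among the 225825 that the authors listed as bound in eCLIP of HEK293 cells, a line of human embryonic kidney cells. A window is a stretch of RNA of about 100 bases or less, and a member was any listed window whose feature type was lncRNA exon. Windows were told apart by chromosome, start, end and strand. In eCLIP a protein is crosslinked to RNA and immunoprecipitated (IP), and the reads obtained are compared with an input library made without selection. There were 24 libraries, 2 IP and 2 input for each of 6 experiments. Of these, 4 experiments mapped SNRNP200: whole cells without treatment, whole cells given 500 µM arsenic, and a cytoplasmic fraction in either state. The other two, for CAPRIN and G3BP1, had no treatment by the characteristics of their samples, and the label CAPRIN does not name the family member. The labels name no genetic change to the cells, and nothing says that replicates were separate cultures, so every p-value measures only the spread between these samples, which may be technical.

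LncRNAs are long transcripts that code for no known protein, and many of them, though not all, are spliced. Some stay in the nucleus, such as MALAT1, a component of nuclear speckles, and XIST, which coats the inactive X chromosome. Others act in the cytoplasm, such as NORAD, which binds Pumilio proteins, and the SNHG genes carry small nucleolar RNAs (snoRNAs) in their introns. SNRNP200 is the RNA helicase of the U5 particle that opens the U4/U6 duplex when the spliceosome is activated. G3BP1 and CAPRIN1 are RNA-binding partners found in stress granules.

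The members fell unevenly on the lists. The whole cell SNRNP200 lists held 2861 untreated windows (1.57% of the list, exact 95% binomial interval 1.51% to 1.63%) and 1898 windows with arsenic (1.61%). In the cytoplasmic fraction there were 58 untreated windows (1.39%, interval 1.05% to 1.79%) and 49 with arsenic (0.723%, interval 0.536% to 0.955%). The CAPRIN list had 88 (0.556%, interval 0.446% to 0.684%) and the G3BP1 list 82 (2.71%, interval 2.16% to 3.36%). These intervals cover counting error only. By genes named, the counts were 881, 703, 23, 22, 47 and 31 in the same order. Weighted by IP reads, members took 2.32%, 2.31%, 1.42%, 0.469%, 1.51% and 9.99% of the reads in listed windows. Of all members, 1793 stood in 1 list, 1588 in 2, 21 in 3 and 1, in NORAD, in 4.

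The feature type was checked against the other annotations of the same window. In whole cells only 33.3% of the untreated and 30.1% of the arsenic members were annotated as a lncRNA exon and nothing else. Another 58.3% and 64.1% also lay in an intron of some transcript, and 40.7% and 47.2% at a splice site of that intron. The gene named was of the lncRNA type in 23.5% and 24.5%, a protein-coding gene in 49.0% and 49.9%, and a pseudogene in 27.4% and 25.4%. Within protein-coding genes, 86.7% and 92.9% of the members were also intronic, so in whole cells a lncRNA exon window often also carried the annotation of a protein-coding gene's intron. The other lists were closer to the name, though NORAD alone held 28 of 58 untreated and 20 of 49 arsenic cytoplasmic members. By genes, the lncRNA type was named for 17 of 23, 14 of 22, 25 of 47 (CAPRIN) and 24 of 31 (G3BP1). Pseudogenes were still named for 28.4% of CAPRIN members. Windows annotated as lncRNA exon alone made up 91.4% of the untreated cytoplasmic, 87.8% of the arsenic cytoplasmic, 67.0% of the CAPRIN and 87.8% of the G3BP1 members, and lncRNA genes were named for 86.2%, 81.6%, 58.0% and 90.2%.

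**Figure D1:**
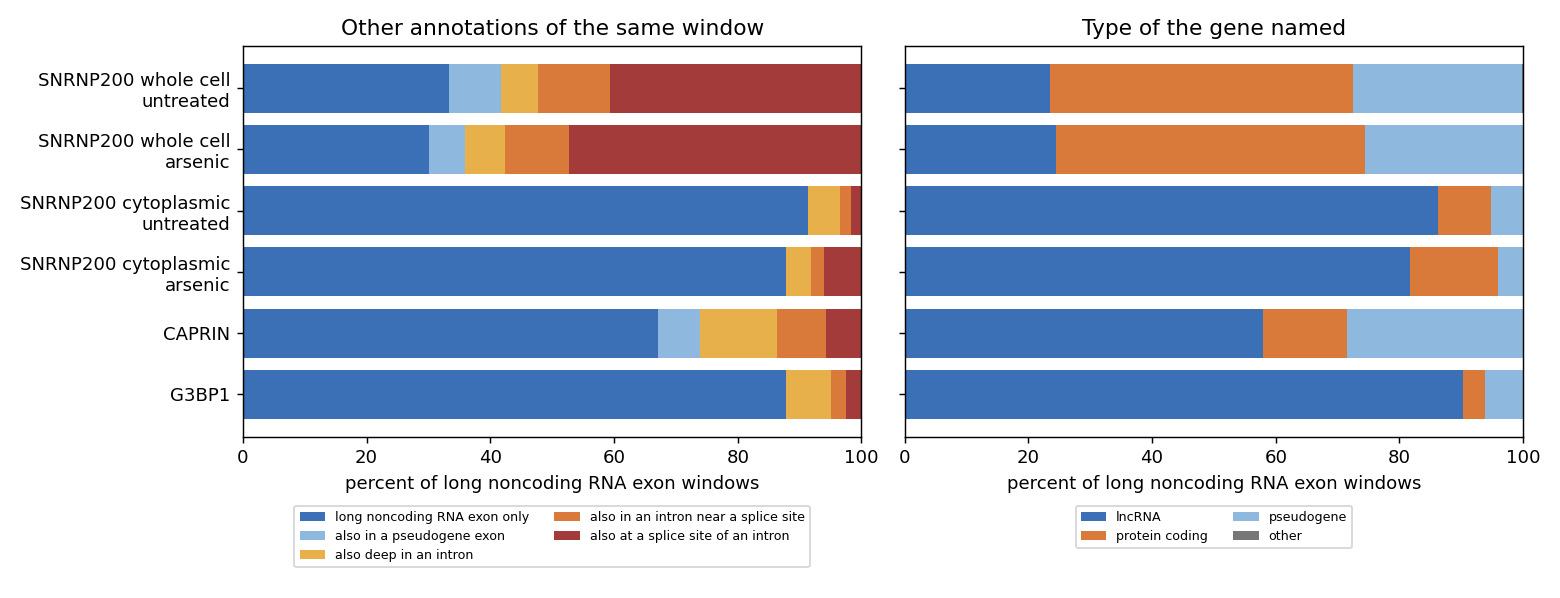
Share of lncRNA exon windows in each list (x axis, percent) by the other annotations of the same window (left) and by the type of gene named (right); each bar is 1 list and adds up to 100%. The whole cell SNRNP200 bars hold 40.7% and 47.2% of windows at a splice site and 49.0% and 49.9% in protein-coding genes. Windows in lncRNA genes make up 23.5% and 24.5% there, against 58.0% to 90.2% in the other 4 lists.

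For 57 members the whole window lies inside a RefSeq start-site stretch (assembly GRCh38.p14), so their sequence can be shown. These 4 are given because each stands for a kind of window the results turn on: the start of NORAD, a lncRNA listed for 3 experiments, an intronic window at a splice site, and a tRNA gene inside a lncRNA exon. Each reads 5′ to 3′ on the strand of the window.
NORAD: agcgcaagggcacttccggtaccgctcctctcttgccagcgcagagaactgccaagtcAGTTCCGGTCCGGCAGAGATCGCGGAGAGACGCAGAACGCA
CHASERR: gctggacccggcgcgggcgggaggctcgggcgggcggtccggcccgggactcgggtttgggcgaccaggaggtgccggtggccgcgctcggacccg
RPL39: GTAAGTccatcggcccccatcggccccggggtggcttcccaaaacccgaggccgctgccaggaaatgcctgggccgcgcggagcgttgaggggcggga
LINC00240: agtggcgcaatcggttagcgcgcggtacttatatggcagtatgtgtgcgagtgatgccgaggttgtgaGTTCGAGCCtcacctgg
The NORAD window, chr20:36050920-36051018 on the minus strand, has in capitals the 41 bases from the RefSeq start onward. CHASERR, a lncRNA next to CHD2 that lowers its expression, has its window at chr15:92883091-92883186 on the plus strand, before the RefSeq start, with a GC fraction of 0.823. RPL39, a ribosomal protein gene, has its window at chrX:119791476-119791573 on the minus strand, annotated at a 5′ splice site as well, and the capitals mark GTAAGT, the letters that follow the exon at many 5′ splice sites. The LINC00240 window, chr6:27020351-27020435 on the plus strand, lies with all its 85 bases inside the isoleucine tRNA gene TRI-TAT2-2. Its capitals mark GTTCGANNC, the core of the B box inside tRNA genes.

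Motifs were searched in these 57 windows on the strand of the window. GTAAGT was in 2 of them (3.51%) and in 41 of 1929 other windows with sequence (2.13%). GTTCGANNC was in 2 (3.51%) and in 4 of the others (0.207%). The 2 were the LINC00240 window and a G3BP1 window of MIR663AHG, and the latter overlapped no RefSeq tRNA gene. TGTANATA, the letters Pumilio proteins bind, was in 0 of 57 and in 2 of 1929 (0.104%), and the windows with sequence include only the start of NORAD.

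SNRNP200 enrichment in whole cells had a higher median where member windows met a splice site, a difference that was not tested. The log2 enrichment of IP over input is the authors' own value, and the sources used here do not say how its baseline was set. Its median was 3.47 untreated and 3.74 with arsenic over members at a splice site, and 3.14 and 3.42 over members that were lncRNA exon only. Members touching a 5′ splice site numbered 709 and 562, and those touching a 3′ splice site 589 and 433. The strongest untreated member lay in NACA, which encodes a chaperone of nascent chains, at a 5′ splice site, with replicates at 6.62 and 7.13, 68 IP reads and 0 input reads. GAS5, a snoRNA host that accumulates on growth arrest, had a window with replicates at 6.10 and 6.82 untreated (517 IP and 14 input reads) and 5.07 and 7.24 with arsenic (355 and 9). The replicates of GAS5 without arsenic lay inside the range of those with it. In PSMA3-AS1, antisense to a proteasome subunit gene, a window at a 3′ splice site stood at 6.27 and 6.88 untreated.

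Near introns the members differed from coding windows in the whole cell lists, a difference that was not tested. A listed intron window lay within 100 bases of 36.3% of untreated and 34.2% of arsenic whole cell members, against 61.7% and 59.2% of coding sequence windows. Of these members 58.3% and 64.1% were themselves also annotated in an intron, yet had lncRNA exon as their feature type. How far that labelling affects the shares was not tested. In the cytoplasmic and CAPRIN lists no member had such a neighbour, where 0.118%, 0.177% and 0.436% of coding windows had one, and in G3BP1 3.66% of members and 0% of coding windows had. Members that abutted another listed window made up 70.0% and 63.0% in whole cells, against 73.3% and 65.1% of coding windows. For the cytoplasmic lists the shares were 58.6% and 34.7%, against 29.7% and 31.6%. They were 29.5% against 39.2% for CAPRIN and 54.9% against 37.4% for G3BP1. Single genes weigh on these shares. NORAD held 28 of 58 untreated cytoplasmic and 21 of 82 G3BP1 members, most of them side by side, and shares without it were not computed.

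Genes with many member windows in whole cells were of several kinds. MYSM1, a histone H2A deubiquitinase gene, had 32 windows untreated and 22 with arsenic. Pseudogenes followed, with 31 and 17 windows in HERC2P2, 30 and 16 in NSUN5P1 and 29 and 21 in SMG1P5. Reads from such near-identical copies can be placed on any of them, so the copy is uncertain. AC138969.4, in the files a protein-coding gene, had 28 windows untreated and 3 with arsenic. Among genes of the lncRNA type, SNHG15 led with 27 windows untreated and 28 with arsenic.

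Among the gene lists used here, the snoRNA hosts had the most genes with a window in whole cells, while antisense lncRNAs, grouped by name alone, had 36 genes untreated and 34 with arsenic. Of 30 host genes listed, 22 had a member window untreated and 23 with arsenic, and 26 had a listed window of any feature type. Their windows numbered 140 and 112, of which 90 and 81 lay at a splice site and 20 and 10 were lncRNA exon only. A snoRNA gene itself was overlapped by 13 and 10 of all whole cell members. SNHG15, on chromosome 7 (44983121 to 44986644, minus strand), had mean log2 values of 2.06 to 5.07 untreated (median 3.30, 3469 IP and 360 input reads) and 2.19 to 6.28 with arsenic (median 3.53, 5023 and 531). Of its 25 windows in both lists, 19 had the higher mean with arsenic, with a median difference of 0.27. SNHG1, host of several C/D box snoRNAs, had 12 and 11 windows with medians of 4.81 and 5.08, and SNHG17 had 16 and 14 windows with medians of 2.87 and 3.07. SNHG7 had 15 windows without arsenic and 5 with it, with medians of 2.96 and 4.89, which cover different windows. The 5 windows listed with arsenic had means of 2.29, 4.10, 4.89, 5.63 and 4.94. Untreated, the same windows stood at 2.54, 3.08, 5.23, 5.50 and 5.06.

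**Figure D2:**
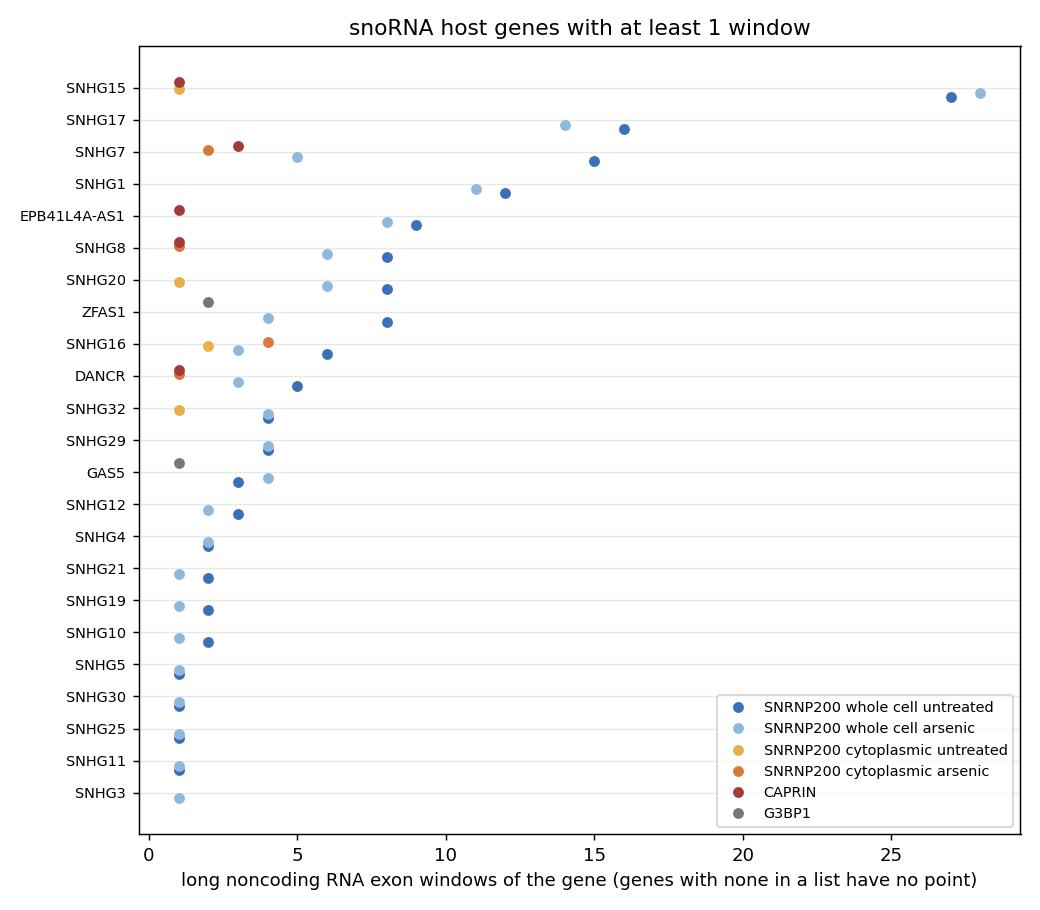
Number of lncRNA exon windows (x axis) of each snoRNA host gene (rows), coloured by list. SNHG15 holds 27 and 28 in whole cells, and no host gene has more than 4 in a cytoplasmic, CAPRIN or G3BP1 list.

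Outside whole cells host windows were few in number, as were all members. They made up 5 of 58 untreated cytoplasmic members, 8 of 49 with arsenic, 7 of 88 for CAPRIN and 3 of 82 for G3BP1. In whole cells they were 140 of 2861 and 112 of 1898 members, a lower share than in the cytoplasmic and CAPRIN lists. That difference was not tested. The 5 untreated cytoplasmic windows lay in 4 hosts and the 8 with arsenic in 4, with 4 and 6 of them lncRNA exon only. SNHG16 had 2 windows untreated, with means of 2.83 and 3.48, and 4 others with arsenic at means of 2.53 to 5.95. SNHG8 shared a window, chr4:118278709-118278804, between both whole cell lists and the arsenic cytoplasmic list. CAPRIN had 7 host windows in 5 genes, 3 of them in SNHG7, and G3BP1 had 3 in GAS5 and ZFAS1, which all overlapped a snoRNA gene.

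Nuclear lncRNAs were unevenly listed. Of 15 listed genes, 6 had a member window in whole cells untreated and 5 with arsenic. The cytoplasmic lists had 1 and 0 of these genes, CAPRIN 2 and G3BP1 1. By windows these genes held 38 of 2861 and 24 of 1898 whole cell members, and 1 of 58 in the untreated cytoplasm. For CAPRIN they held 23 of 88 and for G3BP1 11 of 82, higher shares than in whole cells. MALAT1 had 2 windows in each whole cell list, at means of 1.75 and 2.59 untreated and 2.21 and 3.09 with arsenic. For CAPRIN it had 11 windows with means of 0.59 to 3.09 (median 0.93), and their 994 IP reads were fewer than the 1833 input reads. These were raw counts, not scaled by library totals. A NORAD window of the arsenic cytoplasmic list also had fewer, 42 against 72, at a mean of 3.98. XIST had 25 and 14 windows in whole cells, 1 in the untreated cytoplasm, 12 for CAPRIN and 11 for G3BP1. Its CAPRIN windows were as weak as those of MALAT1, with a median of 1.05 over 862 IP and 1387 input reads, and those of G3BP1 had a median of 2.96. Of 18 microRNA host genes on the list used, 3 had windows, in the whole cell lists alone, with DLEU2 at 7 and 9. MIR663AHG, a microRNA host outside that list and named after its values were seen, had 2 G3BP1 windows with means of 2.05 and 1.52. None of the 7 structured RNA genes listed had a member window in any list.

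In the cytoplasmic fraction a large share of the members came from NORAD. This unspliced lncRNA on chromosome 20 (windows from 36045716 to 36051018, minus strand, ENSG00000260032.2) held 28 of 58 untreated windows (48.3%) and 20 of 49 with arsenic (40.8%). It also held 21 of 82 G3BP1 windows (25.6%), 1 CAPRIN window and none in whole cells. Fewer NORAD windows passed stricter thresholds chosen after seeing the data. With q under 0.05 there were 9 untreated, 3 with arsenic and 15 for G3BP1, and with at least 20 IP and 10 input reads 10, 16 and 1. The next gene in the cytoplasm untreated, LINC02693, had 3 windows. The 35 distinct NORAD windows were all annotated as lncRNA exon and nothing else.

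Enrichment along NORAD differed by list. Untreated SNRNP200 means ran from 1.47 to 4.37 (median 2.71, 1919 IP and 279 input reads), those with arsenic from 2.26 to 5.64 (median 4.16, 945 and 558), and those of G3BP1 from 3.07 to 6.89 (median 4.99, 782 and 80). Each list is a table of its own, so differences of baseline between lists cannot be told apart from these levels. The strongest G3BP1 window, chr20:36047582-36047679, had replicates at 6.60 and 7.18, with 86 IP and 2 input reads, and 3.07 and 5.46 for untreated cytoplasmic SNRNP200. All G3BP1 replicates there lay above those of SNRNP200. One stretch, chr20:36049742-36049839, was in 4 lists, with replicates at 2.54 and 2.66 (SNRNP200 untreated), 4.25 and 5.28 (arsenic), 3.33 and 4.56 (CAPRIN) and 6.07 and 6.20 (G3BP1). Here too the G3BP1 values were the highest, though the CAPRIN value rests on 9 IP reads.

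**Figure D3:**
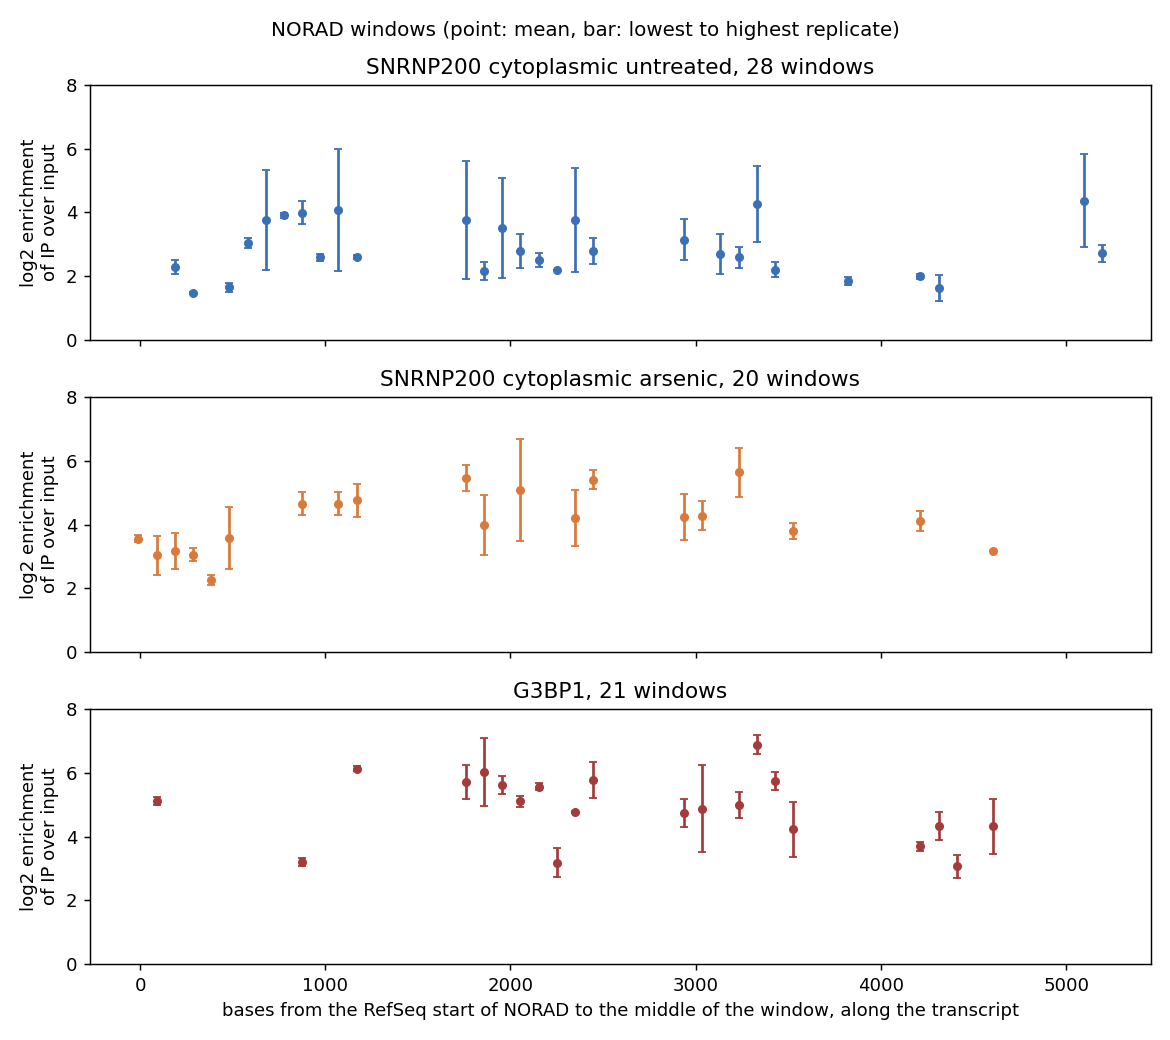
Log2 enrichment of IP over input (y axis) of each NORAD window against its distance from the RefSeq start in bases (x axis), for 28, 20 and 21 windows of 3 lists; points are means and bars run from the lowest to the highest replicate. Untreated SNRNP200 means stay between 1.47 and 4.37, and G3BP1 means reach 6.89.

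The 3 lists met on the same NORAD windows. All 16 member windows shared by untreated cytoplasmic SNRNP200 and G3BP1 lay in NORAD. They were 27.6% of the former and 19.5% of the latter members, while over windows of every type the shared ones were 10.0% and 13.8%. With arsenic 16 were also shared, 32.7% and 19.5% of the members against 11.1% and 24.8% over every type, so that the G3BP1 share lay below that of all windows. Of these, 14 were in NORAD, and the others were in OIP5-AS1, which binds HuR in the cytoplasm, and in HCG11. Of the 10 NORAD windows in all 3 lists, 7 had a G3BP1 mean above both SNRNP200 means.

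Other lncRNAs listed as cytoplasmic had few windows. Of 12 such genes, NORAD included, 4 and 3 had a member window in whole cells. The cytoplasmic lists had 1 and 3 of them, and CAPRIN and G3BP1 had 2 each. In whole cells they were OIP5-AS1 (untreated only), DANCR, FIRRE and TUG1, which is also on the nuclear list. FIRRE held 8 of the 16 untreated and 6 of the 12 arsenic whole cell windows of these genes. Where its RNA lies in the cell was not tested. Of 12 listed as induced by stress, the counts were 5, 5, 2, 1, 2 and 2 in the order of lists above. FGD5-AS1 had 2 untreated at means of 3.95 and 3.97 and 3 other windows with arsenic at 3.49 to 4.14. OIP5-AS1 had 2 with arsenic, one of them, chr15:41300539-41300638, with replicates at 5.22 and 5.53 and at 3.67 and 5.67 for G3BP1. DANCR, a lncRNA that also hosts snoRNAs, had 5 and 3 windows in whole cells, 1 in the arsenic cytoplasm and 1 for CAPRIN.

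CAPRIN and G3BP1 members often lay over genes of other noncoding RNAs. RefSeq tRNA genes were overlapped by 13 of 88 CAPRIN members (14.8%, exact 95% interval 8.11% to 23.9%) and 14 of 82 G3BP1 members (17.1%, interval 9.66% to 26.98%). Among windows of other types the shares were 0.108% and 1.09%. These counts take an overlap of 1 base or more, and with at least 30 bases, a limit chosen after seeing the data, 9 CAPRIN and 8 G3BP1 members remained. The TRD-GTC2-11 window overlaps its gene by 17 bases. Whole cell lists had 1 such member each, and the cytoplasmic lists 0 of 58 and 0 of 49. These windows held 60.2% of the IP reads in CAPRIN members and 75.2% in G3BP1 members. Their median log2 enrichment was 5.29 against 3.32 over the remaining CAPRIN members, and 6.80 against 3.89 for G3BP1. Among the 20 strongest members, 8 for CAPRIN and 11 for G3BP1 overlapped a tRNA gene.

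The tRNA windows of both proteins overlapped in part. There were 18 distinct windows over 16 tRNA genes, 9 windows were in both lists, and 8 of these had the higher mean for G3BP1. The strongest for G3BP1 was chr15:45198606-45198694 on the minus strand, an exon of CTD-2651B20.7 over the histidine tRNA gene TRH-GTG1-7. Its replicates were at 7.69 and 8.72 for CAPRIN (897 IP and 6 input reads) and at 9.33 and 11.39 for G3BP1 (2063 and 3). The strongest for CAPRIN lay over TRH-GTG1-8, in CTD-2651B20.6, and stood at 8.56 and 8.92 for CAPRIN and 8.59 and 11.36 for G3BP1. The replicates thus stood apart in the former window and overlapped in the latter. LINC00324 had windows at 3 tRNA genes, for aspartate, proline and tryptophan, and LINC00240, shown above, had replicates at 5.27 and 5.31 for CAPRIN. Copies of a tRNA gene are alike in sequence, so reads may come from another copy, and the RefSeq table used gives no strand for tRNA genes. Whether reads came from the tRNA or from the lncRNA was not tested.

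**Figure D4:**
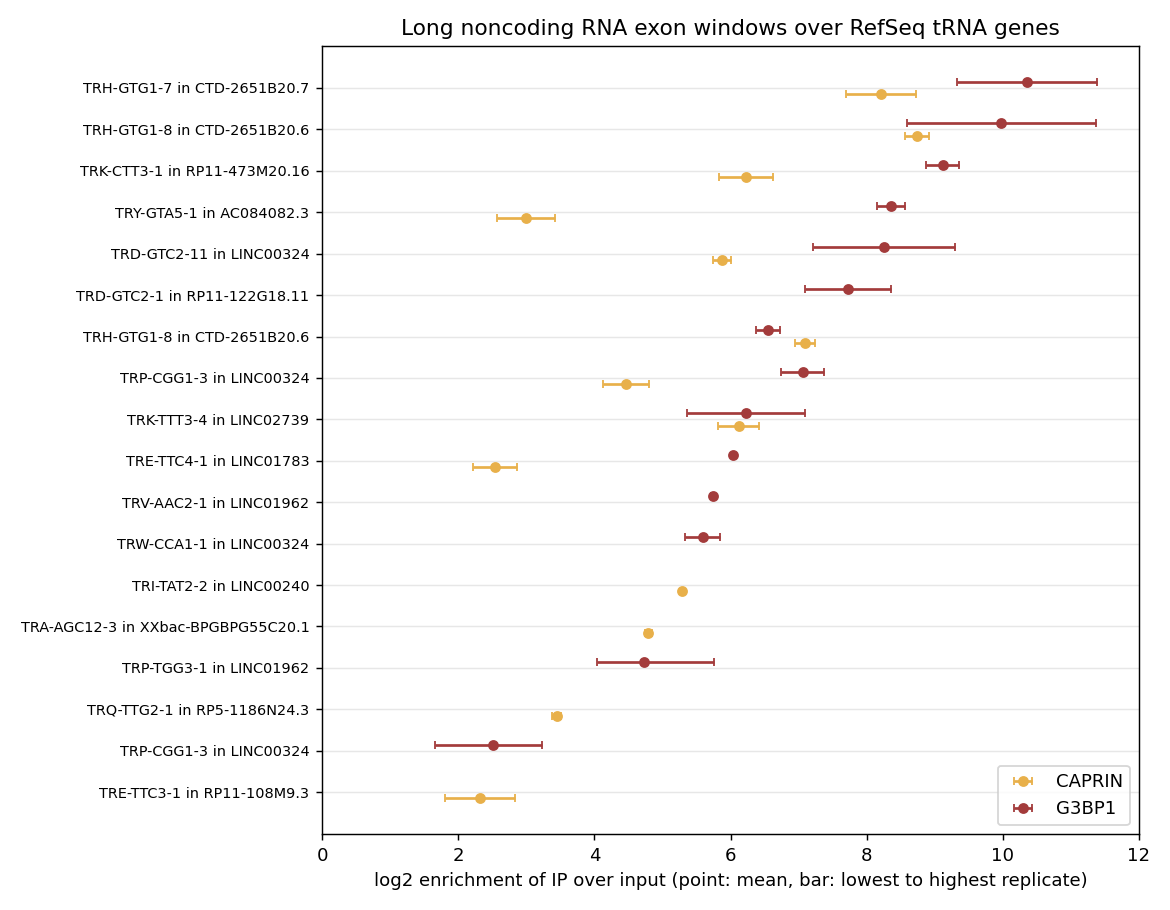
Log2 enrichment of IP over input (x axis) of the 18 lncRNA exon windows over RefSeq tRNA genes (rows, named by tRNA gene and lncRNA), for CAPRIN and G3BP1; points are means and bars run from the lowest to the highest replicate. In 8 of the 9 rows with both colours the G3BP1 mean is the higher.

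A further 9 G3BP1 members, all of CH507-513H4.6 (chromosome 21, 8210384 to 8211306, minus strand), overlapped the ribosomal RNA genes RNA18SN2 and RNA45SN2 in position, with no strand given for these genes in the RefSeq table. Their means ran from 1.64 to 3.29 with 2216 IP and 1407 input reads, and no other list had a member there. CAPRIN had strong members away from these genes too. The RP5-984P4.6 window had replicates at 7.67 and 8.50 with 121 IP and 0 input reads. CHASERR, in the window shown above, had replicates at 6.71 and 8.13 for CAPRIN (477 IP and 2 input reads), 3.10 and 4.08 for untreated whole cell SNRNP200 (166 and 8) and 1.94 and 2.39 with arsenic (134 and 16). The 3 pairs of replicates did not overlap.

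How arsenic changed SNRNP200 on the same windows in whole cells was tested over 91143 windows in both lists, 1549 of them members. The members were 54.1% of the untreated and 81.6% of the arsenic members. Limma, with Benjamini-Hochberg adjustment over all windows tested, called 0 of 91143 (0%) and so 0 members, and unadjusted p was under 0.05 for 4076 windows, 67 of them members. The median difference, arsenic minus untreated, was 0.12 over members and -0.01 over all windows. Replicates lay apart upward in 288 members (18.6%), where all windows gave 15.6%, and apart downward in 220 (14.2%), where all windows gave 16.9%. These shares are near the background. Splice site members and lncRNA exon only members had like medians, 0.12 over 785 and 0.11 over 440.

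The widest differences among members did not pass the test. LMO4, a LIM domain transcription factor gene, had replicates at 6.67 and 7.13 with arsenic and 3.09 and 3.74 without, a difference of 3.48 (SE 0.84, limma adjusted p = 0.99977). Its window had 110 IP and 0 input reads with arsenic and 92 and 10 without. RARS2, the mitochondrial arginyl-tRNA synthetase gene, stood at 1.93 and 3.14 with arsenic and 4.72 and 6.11 without, a difference of -2.87 (SE 0.88, limma adjusted p = 0.99977). The RARS2 window had 39 IP and 9 input reads with arsenic and 51 and 1 without. In both genes the replicates lay apart, and both differences rest in part on few input reads. The other named windows, in HERC2P9, RBBP6, ODR4 and SMG1P7 above and NPIPB4, RP11-274B21.14, TIMM17A and PKD1 below, differed by 2.37 to 2.66 and by -2.20 to -2.02.

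**Figure D5:**
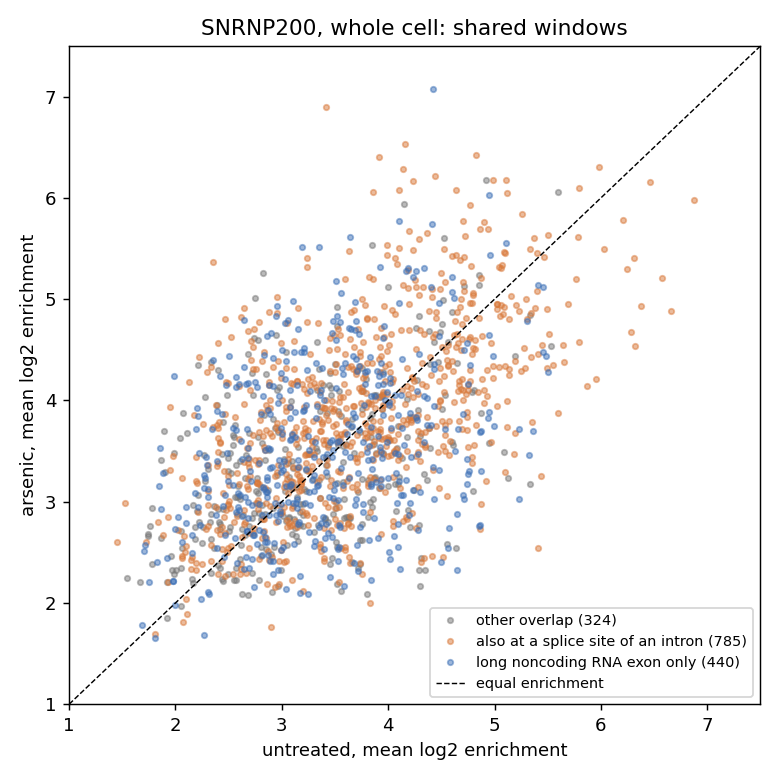
Mean log2 enrichment of SNRNP200 in whole cells with arsenic (y axis) against untreated (x axis) for the 1549 lncRNA exon windows in both lists, coloured by annotation, with the dashed line of equal enrichment. Points lie on both sides of the line, with LMO4 and HERC2P9 the highest points, at 6.90 and 7.08 with arsenic. Both of these windows had 0 input reads with arsenic.

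Genes with a member in only one whole cell list were common. Of the untreated genes 256 had no member with arsenic, though 182 of them had listed windows of another type there, and of the arsenic genes 78 had no untreated member, 62 of them with other windows. ERVK13-1, with 4 untreated windows, had no listed window of any type with arsenic. The list with arsenic is the shorter, and a gene that drops out of a list was not tested.

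In the cytoplasm 17 member windows were in both SNRNP200 lists, 14 of them in NORAD. Limma called 0 of 1065 shared windows (0%), with unadjusted p under 0.05 for 312 of them and 2 members. All 17 members had the higher mean with arsenic, as did 96.5% of all windows, and the median difference was 1.71 over members and 2.00 over all. Replicates lay apart upward in 10 of 17 members, against 71.4% of all windows, and downward in none, against 0.751%. The members' values thus differed in the direction of nearly the whole list. The widest difference, in NORAD at chr20:36047680-36047777, was between replicates at 4.88 and 6.40 with arsenic and 2.26 and 2.93 without, 3.04 (SE 1.19, limma adjusted p = 0.147). Its raw reads were 82 IP and 21 input with arsenic and 168 and 30 without, not scaled by library totals. A difference of baseline between the lists cannot be told apart from such a difference. With a variance trend limma called 2 NORAD windows, and among windows with q under 0.05 it called 1 of 2 members. With the median difference removed, members stood at a median of -0.28 and none was called.

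Between fractions there was little to compare. Without arsenic 1 member was in both the cytoplasmic and the whole cell SNRNP200 list, in SNHG20, with replicates at 1.78 and 1.96 in the cytoplasm and 4.09 and 5.41 in whole cells. The difference of -2.88 (SE 0.62) had a limma adjusted p of 0.252, and limma called 0 of 651 windows (0%), with 114 at unadjusted p under 0.05. With arsenic 3 members were shared, in NIPBL-DT, SNHG7 and SNHG8, at differences of 0.83, 0.53 and 0.25, where the median over all 882 windows was 1.36. With that median removed the member median turned from 0.53 to -0.83. Limma called none of these windows (0%), with 166 at unadjusted p under 0.05 and none of them a member.

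CAPRIN and G3BP1 shared 15 member windows, 17.0% of the CAPRIN and 18.3% of the G3BP1 members, while over all windows 10.7% and 55.8% were shared. Of the 15, 12 could be tested on 2 replicates each. Limma called 7 of the 12 lower for CAPRIN and 0 higher. Over all 551 windows it called 25%, and 15.2% were called lower. The median difference, CAPRIN minus G3BP1, was -2.17 over members and -0.41 over all windows. Replicates lay apart downward in 8 of 12 members, against 41.2% of all windows, and upward in 1, against 25.6%. Of the 12 members, 9 overlapped a tRNA gene, with 5 called lower, and of the 3 others 2 were called lower.

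The widest difference was in AC084082.3 over the tyrosine tRNA gene TRY-GTA5-1 (chr8:66113363-66113440), with replicates at 2.56 and 3.42 for CAPRIN and 8.15 and 8.56 for G3BP1. The difference was -5.36 (SE 0.55, limma adjusted p = 0.00185). LINC01783, over a glutamate tRNA gene, differed by -3.50 between replicates at 2.22 and 2.86 and at 6.03 and 6.05 (SE 0.52, limma adjusted p = 0.00596). In both windows the IP reads were many for each protein, 221 and 730 in the former and 1798 and 4210 in the latter. RP11-473M20.16, over the lysine gene TRK-CTT3-1, differed by -2.88 (SE 0.55, limma adjusted p = 0.0104), and the LINC00324 windows by -2.60 and -2.38 (SE 0.55 and 0.72, limma adjusted p = 0.0141 and 0.0462).

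The called windows away from tRNA genes were those of NORAD and XIST. NORAD, in the window of 4 lists given above, differed by -2.19 (SE 0.59, limma adjusted p = 0.0316). XIST, with CAPRIN replicates at 1.00 and 1.14 and G3BP1 replicates at 2.72 and 2.94, differed by -1.76 (SE 0.50, limma adjusted p = 0.0395). In CTD-2651B20.7 the difference of -2.15 (SE 0.76) missed the threshold at a limma adjusted p of 0.0723. With the median difference over all windows removed, 4 of the 12 were called lower, those of AC084082.3, LINC01783, RP11-473M20.16 and 1 of LINC00324. NORAD then differed by -1.78 (limma adjusted p = 0.0628) and XIST by -1.35 (limma adjusted p = 0.0956).

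CAPRIN and untreated cytoplasmic SNRNP200 shared 3 members. Limma called 1 of them higher for CAPRIN, where it called 37.6% of all 1371 windows and 37.3% higher. This was RP11-423H2.1, a pseudogene, with replicates at 4.48 and 6.23 for CAPRIN and 2.80 and 3.65 for SNRNP200, a difference of 2.13 (SE 0.71, limma adjusted p = 0.0425). NORAD differed by 1.34 (limma adjusted p = 0.113) and SNHG15 by 0.90 (limma adjusted p = 0.294). The median was 1.34 over members and over all windows, and with it removed none was called.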

How the data were processed

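The members and all gene lists were chosen with earlier results of these data known. The submitters' processing notes name fastp 0.11.5, STAR 2.7.6 and hg38, and the sources used here do not say how windows were called. The 6 lists deposited by the authors have no header, and columns were identified from their values: raw read counts of input and IP summed over replicates, log2 enrichment of the lowest, mean and highest replicate, and the GC fraction. The deposited p-values and q-values were used as thresholds (all highest q values were under 0.2). For lists cut to equal length, the lowest q also ranked the windows. The number of replicates deposited as a count is 2, or up to 3 in a second set of G3BP1 windows, which gave 11 members. Library totals were not used here. The labels' protocols name the same antibody for all libraries, and the treatment field names arsenic for all. The characteristics were used.

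Windows were compared with limma 3.58.1 (R 4.3.3) on both replicate values of windows in both lists, checked on simulated data, with adjusted p under 0.05. An exact permutation test with 2 against 2 samples cannot reach that. Tables used python 3.11.15 and pandas 2.3.3. Window sequences came from RefSeq stretches, whose GC fraction equalled the deposited one within 0.001 for 1986 of 1986 windows. Named windows were up to 5 per direction with the widest difference, taken from 1 window per gene, and for small comparisons all shared members. CHASERR, NORAD and the tRNA windows were singled out after their values were seen.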

Additional observations from a re-analysis of the deposited data

How the results depend on the processing

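No paired analysis was possible because the deposited values give the lowest and highest replicate without a replicate number, and leaving out each replicate was not run for the same reason. Below, lists stand in the order whole cell untreated, whole cell arsenic, cytoplasm untreated, cytoplasm arsenic, CAPRIN, G3BP1. Counting any annotation of a lncRNA exon gave shares of 6.13%, 6.21%, 6.41%, 9.69%, 7.79% and 11.4% and 2016, 1700, 158, 331, 519 and 170 genes. With at least 20 IP and 10 input reads the shares of the whole cell, CAPRIN and G3BP1 lists were 3.14%, 2.75%, 1.68% and 3.44%, and the genes 275, 185, 2, 9, 12 and 14. With q under 0.05, shares became 1.86% (whole cell arsenic), 2.51% and 1.01% (cytoplasm) and 4.81% (G3BP1), and genes 539, 324, 2 and 7 in the SNRNP200 lists. Genes with at least 2 windows numbered 484, 355, 9, 6, 13 and 12. By IP reads the shares were 2.32%, 2.31%, 0.469% (cytoplasm arsenic), 1.51% and 9.99%. Lists cut to equal length, the 3023 windows ranked first by lowest q, gave 3.21%, 3.08% and 0.860% for whole cells and CAPRIN. Taking 1 window per gene gave 3.14%, 2.93% and 1.02%. G3BP1 windows of the set with up to 2 replicates had 5.66%. Among limma calls, cytoplasmic arsenic went from 0 to 2 under a fit whose variance follows the mean, and to 1 at q under 0.05. CAPRIN against G3BP1 went from 7 to 4 with at least 20 IP and 10 input reads, where 4 could be tested, and to 4 with the median difference removed. CAPRIN against cytoplasmic SNRNP200 went from 1 to 0 with 1 window per gene and with the median removed. The cause was not tested. The read minimum left no member to test in the untreated fraction comparison and in CAPRIN against cytoplasmic SNRNP200, and q under 0.05 left none in either fraction comparison. Under the read minimum tRNA windows numbered 6 for each of CAPRIN and G3BP1, and NORAD windows 10 in the untreated cytoplasm and 1 for G3BP1. With the median difference removed, the member median turned from 1.71 to -0.28 in the cytoplasmic arsenic comparison and from 0.53 to -0.83 between fractions with arsenic, and LINC02739 turned from -0.10 to 0.30 in CAPRIN against G3BP1. The share of cytoplasm arsenic, below that of whole cell arsenic as reported, lay above it when any annotation counted. Counts of shared windows stayed within 1.5 times in 5 of 5 pairs with an overlap of 1 base. Depth was low, with a median of 25 to 44 IP reads per member.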
